A study of Mus musculus with 12 samples.

Results

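Small RNA sequencing was used to compare a pair of mouse cell types that each carry a single chromosome set: androgenetic haploid embryonic stem cells (haploid ESC) and round spermatids (RS). The comparison used 10 of the 12 libraries of the series, chosen by their sample labels. Haploid ESC gave 7 libraries, 2 of line A129-2, 3 of A129-6 and 2 of A129-17, and spermatids gave 3. The other 2 libraries, of the diploid ESC line R1, were left out. All samples were labelled wild type and were collected by sorting on a Hoechst dye, which reads DNA content. The ESC lines were derived from embryos with only a paternal genome and grown with LIF and the kinase inhibitors PD0325901 and CHIR99021, and haploid cells were sorted out again every few weeks, since such lines are known to drift to a diploid state. The spermatids came from testes of male 129Sv mice, whose age and number the labels do not state. The labels call the replicates independent sorts. Separate cultures or animals were not named, so every p-value measures only how these samples spread, and part of that spread may be technical. The haploid group rests on 3 lines, and each line weighed equally in its mean. In the main fits the p-values and standard errors (SE) measure spread between libraries of the same line or of RS. Differences between the 3 lines do not enter them, except in the alternatives that weigh libraries equally or sum the counts of each line.

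MicroRNAs (miRNAs) are short RNAs that are cut from hairpin precursors and repress mRNAs that pair with their seed, bases 2 to 8 from the 5′ end. The 5p and 3p names give the arm of the hairpin that a miRNA comes from. Mouse ESC are known for the miR-290 and miR-302 clusters, which promote the cell cycle of pluripotent cells, and for low levels of mature let-7, a family that rises on differentiation and is held back in ESC by LIN28. Germ cells in and after meiosis are known for the miR-34b/c and miR-449 genes, which share a seed, and for a cluster on the X chromosome that is expressed in testis. Round spermatids are formed by meiosis, before the sperm head and tail take shape.

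The sequences below are mature miRNAs from RefSeq (GRCm38.p6), with the seed in capitals. The first 3 were counted only in spermatids, the next 4 belong to the miR-34 and miR-449 family, where 2 seeds cover the 5p and the 3p arms, and the 2 after them are the most abundant members of the X-linked testis cluster in spermatids.
miR-7210-5p: uAACAUUGuagacaggcacaaag
miR-468-5p: gACUGAUGuacugauaagaaacucagu
miR-7230-5p: aGACUGCUguuucucugaguggc
miR-34b-5p: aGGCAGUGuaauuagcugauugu
miR-449a-5p: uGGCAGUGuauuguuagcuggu
miR-34b-3p: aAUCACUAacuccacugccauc
miR-34c-3p: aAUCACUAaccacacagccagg
miR-881-3p: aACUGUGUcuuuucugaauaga
miR-871-3p: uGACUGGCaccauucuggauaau
The following belong to the miR-290 and miR-302 clusters. miR-292a-5p and miR-292b-3p were the most abundant miRNAs of every haploid library, miR-293-5p shares the seed of miR-292a-5p, miR-291b-5p had no count in spermatids, and the last 4 carry the seed found in both clusters, AAGUGCU. miR-292b-3p reads back along miR-292a-5p on the opposite strand, so reads of this pair cannot be told apart where strand was not used in counting. Other name pairs, such as miR-122-5p and miR-122b-3p, had equal or near-equal haploid values, so a read may have counted under 2 names. The level of miR-292b-3p may thus include reads of miR-292a-5p, which was not tested.
miR-292a-5p: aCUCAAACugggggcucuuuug
miR-292b-3p: aAGAGCCCccaguuugaguau
miR-293-5p: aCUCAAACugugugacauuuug
miR-291b-5p: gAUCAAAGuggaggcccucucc
miR-291a-3p: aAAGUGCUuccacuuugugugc
miR-294-3p: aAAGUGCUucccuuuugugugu
miR-295-3p: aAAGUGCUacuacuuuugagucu
miR-302b-3p: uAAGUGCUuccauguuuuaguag
The last set holds miRNAs of the imprinted Dlk1-Dio3 region, a pair of let-7 members that share their seed, and the 2 arms of miR-28a, whose order differed between the groups.
miR-127-3p: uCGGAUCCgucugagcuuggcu
miR-370-3p: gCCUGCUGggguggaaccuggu
miR-673-5p: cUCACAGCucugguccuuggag
let-7a-5p: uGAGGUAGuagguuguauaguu
let-7g-5p: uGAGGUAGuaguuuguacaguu
miR-28a-5p: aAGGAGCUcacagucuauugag
miR-28a-3p: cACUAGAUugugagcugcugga

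In GRCm38.p6, miR-7210-5p lies at chr14:24088877-24088899 on the plus strand and miR-468-5p at chr6:81896629-81896655 on the minus strand, both outside other genes of the GENCODE M21 annotation. miR-34b-5p (chr9:51103610-51103632, minus strand) lies in an intron of Btg4, which runs on the other strand, and miR-449a-5p (chr13:113037549-113037570, plus strand) in an intron of Cdc20b on the same strand. miR-881-3p (chrX:66801954-66801975, minus strand) and miR-871-3p (chrX:66810438-66810460, minus strand) overlapped no other gene. miR-292a-5p (chr7:3219200-3219221, plus strand) and miR-292b-3p (chr7:3219198-3219218, minus strand) overlap an annotated exon of Nlrp12, a gene on the minus strand. miR-127-3p (chr12:109592888-109592909, plus strand) lies opposite an exon of Rtl1, and miR-370-3p (chr12:109618305-109618326, plus strand) in an intron of the noncoding gene Rian. A copy of let-7a-5p lies at chr13:48538239-48538260 on the minus strand, let-7g-5p in an intron of Wdr82 (chr9:106178846-106178867, plus strand), and miR-28a-5p in an intron of Lpp (chr16:24827868-24827889, plus strand).

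Haploid ESC libraries held 3709786 to 9102467 counts over miRNA features, and the spermatid libraries 243714 (RS 1), 155232 (RS 2) and 166695 (RS 3). A count was found for up to 1064 features in a haploid library and for as few as 491 in a spermatid library. A feature with no count in any of the 3 spermatid libraries could still have reached 2.31 normalised CPM (counts scaled to a common library size), the level of 3 counts over the group, against 0.0926 for the 7 haploid libraries. Levels below are CPM relative to library sizes scaled by TMM, which assumes that most features do not differ. The TMM factors were 0.509 to 0.997 in haploid ESC and 1.93 to 2.44 in spermatids, so normalised CPM of the tested features sum to 1002803 to 1964258 in the haploid libraries and to 412379, 518469 and 409342 in RS 1, 2 and 3. Shares of a library's counts, given for groups of miRNAs, use no such scaling. Fewer cells that make a miRNA and less of it per cell cannot be told apart in these bulk libraries.

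miRNA levels differed widely between the 2 cell types. Of 739 features tested, 506 (68.5%) passed the test at an adjusted p under 0.05 (edgeR). In haploid ESC 347 (47.0%) were higher and 159 (21.5%) lower. All but 3 of the 506 differed by at least 2-fold. Being higher with no overlap between the 7 haploid and 3 spermatid values held for 44.5% of the tested features, and being lower with no overlap for 17.9%. Spermatids had no count for 114 of the higher features, and haploid ESC had none for 19 of the lower ones. Of the 739 tested, 185 had no spermatid count and could not have been lower, and 19 had no haploid count and could not have been higher. The split of higher against lower is thus shaped in part by the shallower spermatid libraries. The median log2 fold change, haploid ESC over RS, was 2.65 over all tested features, and 0.81 with features at 0 in a group set to their bound. This split also depended on scaling: relative to total counts it was 210 against 241, with all log2 fold changes shifted by -1.63 at the median. With upper-quartile scaling it was 242 against 234, with a shift of -1.39. Where another scaling turns the direction of a miRNA named below, its value is given there.

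**Figure D1:**
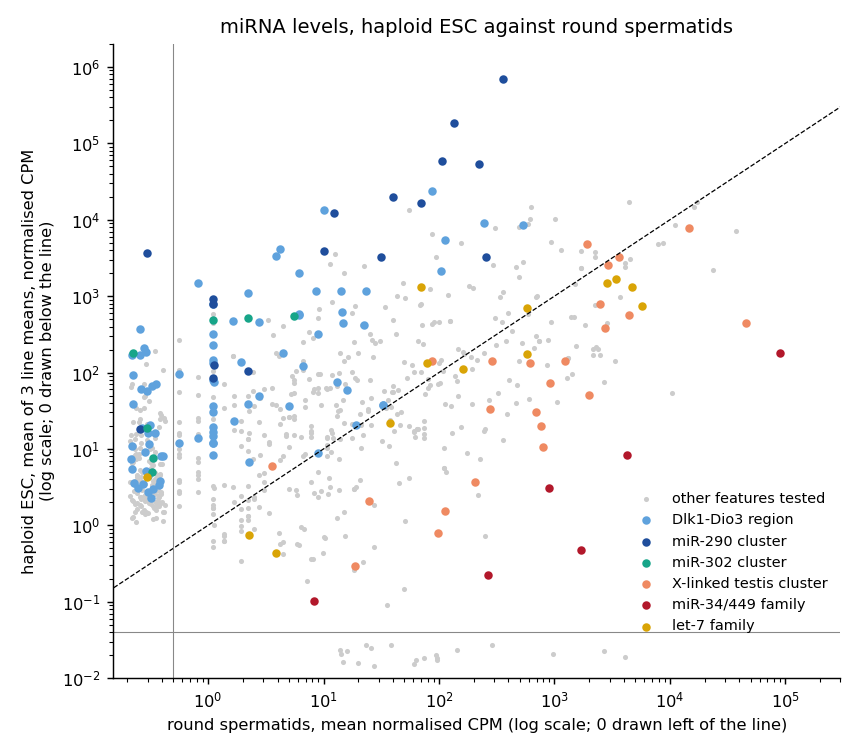
Mean normalised CPM of each tested feature in round spermatids (x axis, log scale, n = 3) and in haploid ESC (y axis, log scale, mean of 3 line means), with 6 lists in colour and values of 0 drawn beyond the grey lines. The miR-290 cluster lies above the dashed line of equal levels and the miR-34 and miR-449 family below it, whereas members of the let-7 family lie on both sides.

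The log2 fold change also moved with base composition. Over the 596 tested miRNAs with a RefSeq sequence, Spearman's rho between the log2 fold change and GC content was 0.485, across miRNAs, which are not independent and share their libraries. Among those with at least 100 CPM in a group the median log2 fold change was -1.41 for the 14 miRNAs under 35% GC, -1.21 for the 63 from 35% to 45% and 1.42 for the 97 from 45% to 55%. It was 5.09 for the 35 from 55% to 65% and 8.74 for the 12 above. The part of library preparation in this trend was not tested. A fit that removed the trend, added after the data had been seen, called 178 miRNAs higher and 164 lower of 596 with a sequence, where the same features without it gave 282 and 131. Of these, 271 were called with the same sign in both fits and 15 with opposite signs. Values after this correction are given below for the named miRNAs whose call it ended or turned.

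The miR-290 cluster made up most of each haploid ESC library and almost none of the spermatid ones. Its share of counts was 64.1% at the lowest and 77.1% at the highest of the 7 haploid libraries, and 0.00985%, 0.678% and 0.0432% in RS 1, RS 2 and RS 3. Of 18 features of the cluster 17 were tested and all 17 were higher in haploid ESC with no overlap (edgeR). Over all features 47.0% were higher, and 44.5% were higher with no overlap. The cluster had a median log2 fold change of 8.94 against 2.65 over all features. After GC correction all 16 with a sequence were higher too. Of the 17, miR-292b-3p may repeat reads of miR-292a-5p. miR-292a-5p, the most abundant miRNA of every haploid library, had 5.08, 1003 and 71.2 CPM in RS 1, 2 and 3, and 357398 at the lowest, 660033 at the median and 1118462 at the highest in haploid ESC. Every haploid library was far above the highest spermatid library, and the log2 fold change was 10.91 (SE 1.50, adjusted p = 3.18e-07). miR-294-3p, which carries the AAGUGCU seed through which the cluster is known to repress inhibitors of the G1 to S transition, had 3.38, 110.3 and 7.37 CPM in spermatids. Its haploid values ran from 15647 over 21188 to 23479 CPM, a log2 difference of 9.08 (SE 0.97, adjusted p = 4.33e-09).

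The spermatid values of the cluster rested largely on RS 2, which held 1052 of its counts against 24 in RS 1 and 72 in RS 3. Summed over the cluster, RS 2 stood at 0.329% of the mean haploid level, RS 3 at 0.0166% and RS 1 at 0.0038%. Single members did not share one percentage: miR-292a-5p in RS 2 was at 0.142% of its haploid mean, miR-293-3p at 1.21%, miR-295-3p at 1.24% and miR-293-5p at 22.4%. miR-293-5p had 735.3 CPM in RS 2 but 6.77 in RS 1 and 17.2 in RS 3, against 2444 to 4449 in haploid ESC, and had the lowest log2 fold change of the cluster, 3.73 (SE 0.85, adjusted p = 3.73e-04). Without RS 2 it was 8.07 (SE 0.61), miR-292a-5p was 14.14 (SE 1.12), and the median of the 17 members, all still called, was 12.51. The source of the ESC-type reads in RS 2 was not tested. miR-291b-5p had no count in any spermatid library and 1940 to 6810 CPM in haploid ESC, at least 1578-fold higher.

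The miR-302 cluster, which carries the same seed and is known mainly from primed pluripotent cells, was lower in abundance and was also higher in haploid ESC. It took 0.0770% to 0.268% of haploid counts, and 0.00515% in RS 2 and none in RS 1 and RS 3, where 0 counts allow up to 0.00151% and 0.00221% (exact binomial interval, counting error only). All 7 tested of 10 features were higher in haploid ESC, beside 47.0% over all features. The median log2 fold change was 8.21, or 6.30 with the 4 members at 0 in spermatids set to their bound. These 4 entered the test through haploid ESC alone and could not have been lower. miR-302a-5p had 286.1, 562.7 and 1008 CPM (lowest, median, highest) in haploid ESC and 16.7 in RS 2, and no count in the other spermatid libraries, a log2 fold change of 6.95 (SE 0.74, adjusted p = 3.83e-09). miR-302b-3p rested on 2 spermatid counts, both in RS 2, for a pooled ratio of 348.0 (95% interval 96.3 to 2874, counting error only). miR-302a-3p was at 0 in all 3 spermatid libraries and at least 78.8-fold higher in haploid ESC. With total-count scaling 5 of the 7 were called higher and none lower.

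**Figure D2:**
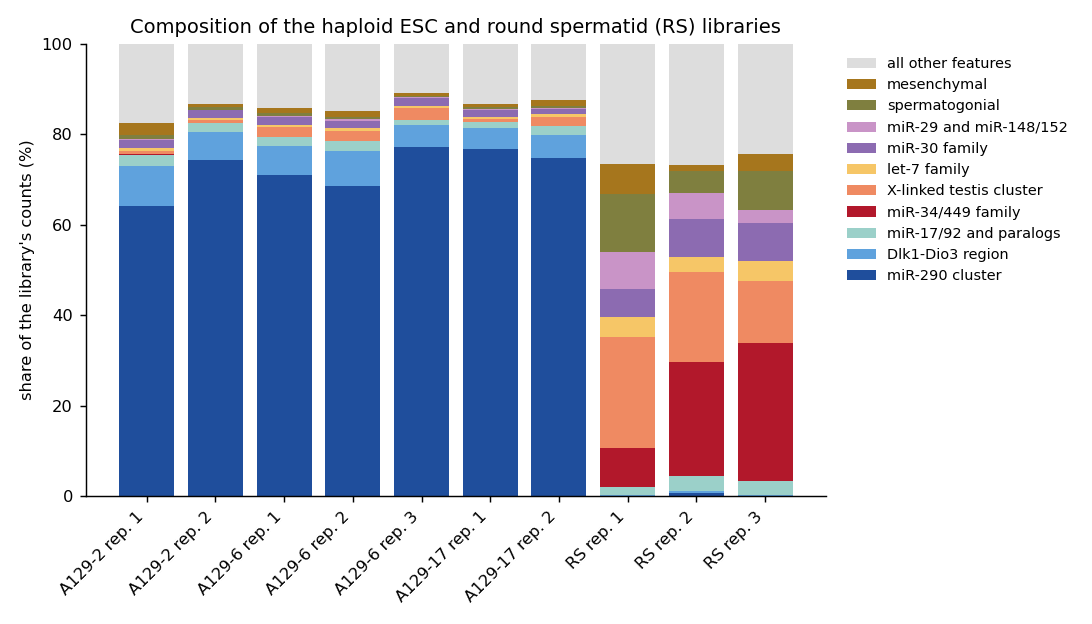
Share of each library's counts (y axis, percent) taken by 10 lists of miRNAs and by all other features, for the 7 haploid ESC and 3 round spermatid libraries. The miR-290 cluster fills 64.1% to 77.1% of the haploid libraries, and the X-linked testis cluster and miR-34 and miR-449 family are the broadest lists in the spermatid libraries apart from the spermatogonial list in RS 1.

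The Dlk1-Dio3 region on chromosome 12 holds a large group of miRNAs that are expressed from the maternal chromosome in most tissues studied and are packed into a few long noncoding transcripts. The haploid ESC have only paternal chromosomes, and a spermatid carries one chromosome set after paternal imprinting. Of 109 features of the region 86 were tested, 78 were higher in haploid ESC and none lower (edgeR), beside 47.0% and 21.5% over all features. Of the 86, 32 had no spermatid count, entered the test through haploid ESC alone and could not have been lower. The median log2 fold change was 6.58, or 4.38 with these 32 set to their bound. Their summed share was 4.52% to 8.81% in haploid ESC and 0.187%, 0.458% and 0.258% in RS 1 to 3. After GC correction 61 of 84 with a sequence were higher and none lower, and with total-count scaling 55 of the 86 were higher and 4 lower.

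miR-127-3p, which lies opposite the imprinted gene Rtl1, had 14108 to 32881 CPM in haploid ESC (median 25046) and 32.2, 177.1 and 51.6 CPM in spermatids, with a log2 fold change of 8.07 (SE 0.79, adjusted p = 9.14e-10). miR-370-3p ranged from 9375 to 19390 CPM (median 11410) in haploid ESC, and spermatids had 3.38, 26.7 and 0 CPM, a log2 fold change of 10.60 (SE 0.92, adjusted p = 9.77e-11). For both, the lowest haploid library was far above the highest spermatid library, and RS 2 was the highest of the 3. miR-673-5p (303.5 to 429.1 CPM), miR-431-3p (135.3 to 312.6), miR-667-3p (148.8 to 214.8), miR-673-3p (136.5 to 207.2) and miR-431-5p (94.4 to 268.2) had no count in spermatids. They were at least 161-fold, 91.8-fold, 80.3-fold, 73.2-fold and 73.2-fold higher in haploid ESC. The 8 members that were not called included miR-369-3p (log2 -0.18), miR-369-5p (0.16), miR-136-3p (0.31) and miR-3071-5p (0.29).

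Other imprinted hosts also had more members higher than lower, as did all features under TMM scaling. The Sfmbt2 intron holds the miR-466, miR-467, miR-669 and miR-297 families, which are expressed from the paternal chromosome in the placenta. Of 50 tested features of these families 37 were higher and 1 lower in haploid ESC (edgeR), where 47.0% of all features were higher and 21.5% lower. Of the 50, 6 had no spermatid count and could not have been lower. The median log2 fold change of the families was 2.91, near the 2.65 of all features. With total-count scaling 20 were higher and 5 lower. The members are near-identical copies and several had equal counts in every library, so single members are uncertain. Their summed shares overlapped, with 0.804% to 1.58% in haploid ESC and 1.58%, 1.28% and 0.607% in RS 1 to 3. miR-467a-5p and miR-467b-5p, with equal counts, had 1668 to 2770 CPM in haploid ESC and 2499, 1918 and 665.8 in spermatids, and did not pass (log2 0.44, SE 0.41, adjusted p = 0.336). They were called lower with total-count (-1.21) and upper-quartile scaling (-1.09), and higher with voom (1.28). miR-669c-5p, chosen after its value was seen, had 1739 to 3328 CPM in haploid ESC and 350.4, 320.8 and 208.8 in spermatids.

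miR-298-5p and miR-296-3p are neighbours near the imprinted Gnas locus. miR-298-5p had 5119 to 9354 CPM in haploid ESC (median 6096) and 52.5, 96.9 and 110.6 in spermatids (log2 6.22, SE 0.58, adjusted p = 3.63e-10). After GC correction its log2 fold change was 0.86 with an adjusted p = 0.0533. miR-296-3p had 2033 to 5010 CPM in haploid ESC against 3.38, 10.0 and 24.6 (log2 8.15, SE 0.67, adjusted p = 4.33e-11). The 2 arms of miR-335, from an intron of the paternally expressed Mest, were called in opposite directions, 3p higher (log2 2.96) and 5p lower (-3.22, SE 1.06, adjusted p = 0.00893). miR-335-5p had 10.2, 10.0 and 0 CPM in spermatids and at most 3.48 in haploid ESC, and it was not called without RS 1 (adjusted p = 0.134), after GC correction (-1.39, adjusted p = 0.251) or with voom (adjusted p = 0.0856).

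The miR-17/92 cluster and its paralogs, which promote proliferation, were split. Only some members, among them miR-17-5p, miR-20a-5p and miR-93-5p, carry the AAGUGCU seed of the miR-290 cluster moved by a base. The seed of miR-92a-3p, for example, is AUUGCAC. Of 22 tested features 15 were higher and 3 lower in haploid ESC (edgeR), beside 47.0% and 21.5% over all features. Their median log2 fold change was 2.12, below that of all features. With total-count scaling 10 were higher and 5 lower, and after GC correction 10 higher and 7 lower of 21. miR-92a-3p had 14758 to 19922 CPM in haploid ESC (median 16568) and 2197, 5772 and 5353 in spermatids, with no overlap (log2 1.92, SE 0.49, adjusted p = 0.00119). It was not called with total-count (0.30, adjusted p = 0.552) or upper-quartile scaling (0.58, adjusted p = 0.214, edgeR), and was lower after GC correction (-1.23, adjusted p = 0.0060). miR-25-3p overlapped between the groups (log2 -0.80, SE 0.37, adjusted p = 0.0611) and was called lower without A129-6 replicate 3, RS 1 or RS 3 (adjusted p = 0.0375, 0.00587 and 0.0298) and after GC correction (-2.02). It was also called lower with RLE (-1.10), upper-quartile (-2.155) and total-count scaling (-2.38). The same held with DESeq2 (-1.10), libraries weighed equally (-1.09) and a filter of at least 50 counts in every library of a group (-1.55). The 3 lower features, named after their values were seen, were miR-19a-3p (log2 -4.08), miR-19b-3p (-3.85, with 5.95 to 32.1 CPM against 189.6, 401.1 and 152.3) and miR-18a-5p (-1.78). They come from the same primary transcripts as miR-17-5p (log2 1.05 under TMM scaling) and miR-92a-3p.

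Of the miR-183 cluster, known from sensory cells, 4 of 5 tested features were higher in haploid ESC and none lower (edgeR). Over all features 47.0% were higher and 21.5% lower. With total-count scaling 2 of the 5 were higher and 1 lower. miR-183-5p had 5704 to 17621 CPM in haploid ESC and 1146, 1023 and 874.6 in spermatids (log2 3.28, SE 0.50, adjusted p = 1.81e-06). miR-182-5p differed less, with 2114 to 5461 CPM against 1942, 2042 and 1098 (log2 1.16, SE 0.43, adjusted p = 0.0180), and its log2 fold change was -0.52 with total-count and -0.30 with upper-quartile scaling. It was not called after GC correction (0.47, adjusted p = 0.303), with RLE scaling (0.81, adjusted p = 0.0789), with a filter of at least 50 counts in every library of a group (0.42, adjusted p = 0.312), with libraries weighed equally (adjusted p = 0.0570) or with sums per line (adjusted p = 0.0895). Leaving out A129-2 replicate 2, A129-6 replicate 3 or RS 3 also ended the call (adjusted p = 0.0640, 0.107 and 0.110). The miR-181 family had 2 features higher and 1 lower of 8, beside the same 47.0% and 21.5%, and 1 higher and 3 lower with total-count scaling. miR-181d-5p had 527.8 to 1689 CPM in haploid ESC against 42.3, 83.6 and 27.0 (log2 4.23, SE 0.49, adjusted p = 2.11e-08). In contrast miR-181a-5p, with 470.6 to 754.1 CPM against 827.7, 444.5 and 481.5, did not pass (log2 -0.01, SE 0.35, adjusted p = 0.986). It was called lower with total-count (-1.68) and upper-quartile scaling (-1.57) and with the filter of at least 50 counts (-0.79, adjusted p = 0.0266, edgeR).

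let-7, the family named in the title of the series, was lower in haploid ESC for some members and higher for others. Of 13 tested features 6 were lower, 2 higher and 5 not called (edgeR), where 21.5% of all features were lower and 47.0% higher. The median log2 fold change was -0.93 against 2.65 over all features. The family took 0.404% to 0.781% of counts in haploid ESC, and 4.51%, 3.41% and 4.44% in RS 1, 2 and 3. let-7g-5p had 601.2, 726.3 and 886.8 CPM (lowest, median, highest) in haploid ESC and 4889, 6858 and 5425 in spermatids, a log2 fold change of -2.95 (SE 0.34, adjusted p = 1.88e-08). let-7a-5p had 900.8, 1255 and 1991 CPM in haploid ESC and 4445, 4596 and 5083 in spermatids, with no overlap (log2 -1.86, SE 0.35, adjusted p = 3.57e-05). After GC correction let-7a-5p was not called (-0.72, adjusted p = 0.0695) and 3 of the 13 were lower and 2 higher. With total-count scaling 10 were lower and 1 higher.

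The 2 higher members, named after their values were seen, were the arms of let-7e, which is transcribed with miR-99b and miR-125a from 1 locus. let-7e-5p had 1153 to 1573 CPM in haploid ESC and 110.0, 30.1 and 68.8 in spermatids (log2 4.19, SE 0.48, adjusted p = 1.36e-08). Its partners at that locus went the same way: miR-99b-5p had 7480 to 10764 CPM against 438.4, 681.8 and 648.6 (log2 3.92, SE 0.50, adjusted p = 1.08e-07), and miR-125a-5p had 581.6 to 1494 against 130.3, 130.3 and 100.7 (log2 3.06, SE 0.42, adjusted p = 3.05e-07). miR-99b-3p (log2 7.04) and miR-125a-3p, with 2 counts in all spermatid libraries, were also higher. After GC correction miR-99b-5p was lower (-1.07, adjusted p = 0.0106). let-7e-3p, at 0 in spermatids and at most 6.17 CPM in haploid ESC, lost its call in several alternatives, among them those without RS 1, RS 2, RS 3 or A129-2 replicate 1 (adjusted p = 0.109, 0.0580, 0.0754 and 0.0506) and the GC correction (adjusted p = 0.333). Over all 9 tested features of the miR-99, miR-100 and miR-125 partners 6 were higher and 2 lower, beside 47.0% and 21.5% over all features. The lower ones were miR-100-5p, with a median of 778.2 and a highest value of 1062 CPM in haploid ESC against 2216, 1524 and 2978 in spermatids (log2 -1.56, SE 0.35, adjusted p = 3.09e-04), and miR-99a-5p (log2 -3.55, SE 0.38). After GC correction 3 of the 9 were higher and 4 lower.

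**Figure D3:**
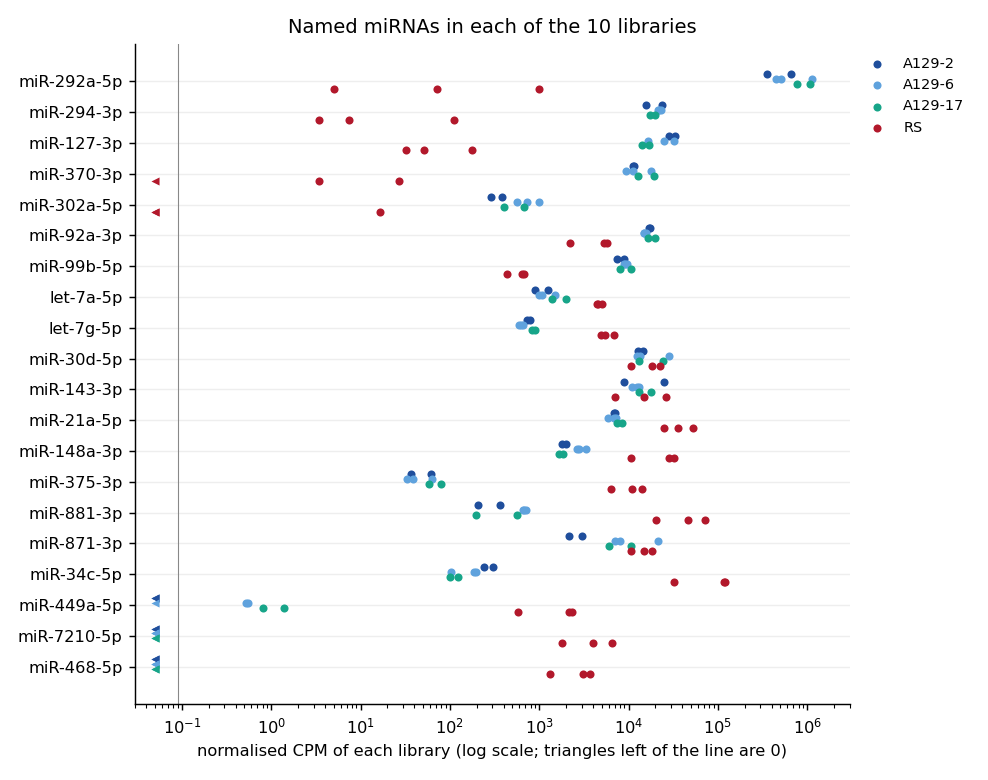
Normalised CPM (x axis, log scale) of 20 miRNAs in each of the 10 libraries, coloured by haploid ESC line or RS, with triangles for 0. The 7 haploid values of let-7a-5p and let-7g-5p lie below all 3 spermatid values, those of miR-30d-5p and miR-143-3p overlap them, and miR-7210-5p and miR-468-5p are at 0 in every haploid library.

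The miR-34 and miR-449 family, needed with its paralogs for normal spermatogenesis in mice, was the list furthest to the spermatid side. The list held miR-34b, miR-34c and miR-449 and left out miR-34a. All 6 tested of its 7 features were lower in haploid ESC (edgeR), beside 21.5% over all features, with a median log2 fold change of -9.04. These features took 8.75%, 25.1% and 30.6% of counts in RS 1, 2 and 3, and 0.00565% to 0.0326% in haploid ESC. In haploid ESC they summed to 106.8 to 326.6 CPM. The left-out miR-34a-5p had 182.8, 283.1 and 510.7 CPM there (lowest, median, highest). miR-34c-5p, the most abundant miRNA of RS 2 and RS 3, had 32294, 120502 and 117609 CPM in spermatids and 99.4, 185.2 and 305.5 (lowest, median, highest) in haploid ESC. The groups were separated by more than 100-fold, with a log2 fold change of -9.05 (SE 0.60, adjusted p = 8.64e-13), and RS 1 was the lowest of the spermatid libraries. miR-34b-3p, from the same transcript, had 2697, 6019 and 3946 CPM against 5.07 to 14.9 (log2 -9.02, SE 0.46, adjusted p = 4.40e-15). miR-34b-5p had 101.6, 350.9 and 348.9 CPM in spermatids and 5 counts in all haploid libraries, all of them in A129-2 replicate 1. miR-449a-5p, from the Cdc20b intron, had 582.3, 2146 and 2339 CPM in spermatids and at most 1.37 in haploid ESC (log2 -12.66, SE 0.60).

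The X-linked testis cluster took 24.5%, 19.9% and 13.7% of counts in RS 1, 2 and 3, and 0.643% to 2.55% in haploid ESC. Of 24 tested of 29 features 19 were lower in haploid ESC, 1 higher and 4 not called (edgeR), where 21.5% of all features were lower and 47.0% higher. The median log2 fold change was -3.32. After GC correction 18 were lower and none higher. Members of the cluster, which lie next to each other, differed widely in how far they were apart. miR-881-3p, the most abundant miRNA of RS 1, had 71149, 46643 and 20141 CPM in spermatids and 195.3 to 715.0 in haploid ESC (log2 -6.78, SE 0.53, adjusted p = 1.47e-11). miR-471-5p, named after its value was seen, had 121.9, 137.0 and 36.9 CPM against at most 1.62 (log2 -7.06, SE 0.50). miR-871-3p, by contrast, was abundant in both, with 10573, 18389 and 15004 CPM in spermatids and 2135, 7096 and 21185 (lowest, median, highest) in haploid ESC. Its ranges overlapped (log2 -1.20, SE 0.44, adjusted p = 0.0190), and it was not called without A129-17 replicate 1 (adjusted p = 0.0790) or with libraries in place of lines weighed equally (0.0847), nor with the counts of each line summed (-1.22, adjusted p = 0.106).

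Other members of the X-linked cluster stood at like levels in both cell types under TMM scaling in the main fit. miR-465a-3p had 2268, 4920 and 3685 CPM in spermatids and 932.3 to 7984 in haploid ESC (log2 -0.43, SE 0.43, adjusted p = 0.367), and miR-465c-5p, of a group of near-identical copies, 1556, 4392 and 2870 against 891.2 to 5220 (log2 -0.40, SE 0.41, adjusted p = 0.385). Both were called lower with total-count scaling, at -2.09 and -2.01, with upper-quartile scaling, at -1.763 and -1.705, and with the filter of at least 50 counts, at -1.204 and -1.165. The 1 higher member, miR-470-5p, overlapped between the groups (log2 1.11, SE 0.44, adjusted p = 0.0270). It was at -0.56 with total-count scaling, -0.30 with upper-quartile scaling and -0.84 after GC correction, and it was not called without RS 1, RS 3, A129-2 replicate 1, A129-6 replicate 3 or A129-17 replicate 2 (adjusted p = 0.0580 to 0.138). miR-878-3p, not called at 0.59 (SE 0.42, adjusted p = 0.207), was lower after GC correction (-1.89) and with total-count scaling (-1.02), and was called higher without RS 2 (1.03, adjusted p = 0.0450). Elsewhere on the X chromosome 29 of 47 tested miRNAs with a RefSeq sequence were higher in haploid ESC and 5 lower, with a median log2 fold change of 4.27. On other chromosomes 251 of 525 were higher and 108 lower, with a median of 3.04.

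A further set of miRNAs was counted in spermatids and in no haploid ESC library. miR-7210-5p had 6485, 4014 and 1784 CPM in RS 1, 2 and 3, and was at least 44225-fold lower in haploid ESC. miR-468-5p had 3128, 3670 and 1329 CPM, at least 29263-fold lower. miR-7214-5p (494.3, 1220 and 1189 CPM), miR-7230-5p (132.0, 314.2 and 410.3) and the predicted novel_697 (50.8, 170.5 and 208.8) were at least 10454-fold, 3084-fold and 1548-fold lower. All 3 spermatid libraries were far above the haploid limit of 0.0926 CPM for each of them. Of the 19 tested features at 0 in haploid ESC 11 were named between miR-7210 and miR-7243, a range picked after the values were seen, and 4 were predicted. These 11 are all the tested features of that range, out of 40 in the table. A feature at 0 in haploid ESC can only pass the filter through its spermatid counts, so the 11 had to be lower.

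Several miRNAs of broad expression were also more abundant in spermatids. miR-21a-5p, an abundant miRNA of many somatic tissues and of undifferentiated spermatogonia, had 52331, 24969 and 35545 CPM in spermatids and 5930 to 8504 in haploid ESC (log2 -2.39, SE 0.42, adjusted p = 1.65e-05). miR-148a-3p had 32253, 28305 and 10636 CPM against 1671 to 3376 (log2 -3.46, SE 0.42, adjusted p = 3.95e-08). The separation was clean for both, with every spermatid library above every haploid one. miR-148b-3p was lower too (log2 -1.70, SE 0.36, adjusted p = 1.70e-04), and of the 11 tested features of the miR-29, miR-148 and miR-152 families, which are known to target DNA methyltransferases, 6 were lower and none higher (edgeR), where 21.5% of all features were lower and 47.0% higher. miR-375-3p, known from pancreatic islets, had 6294, 14027 and 10992 CPM in spermatids and 33.4 to 79.1 in haploid ESC (log2 -7.62, SE 0.45, adjusted p = 8.39e-14). miR-192-5p was lower as well (log2 -3.38, SE 0.37). Of the differentiated lineage list 8 of 12 features were lower and 2 higher, beside the same 21.5% and 47.0%, with none higher relative to total counts.

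The family of miR-15 and miR-16, known to slow the cell cycle, had 11 tested features, of which haploid ESC showed 6 lower and 1 higher (edgeR), beside 21.5% and 47.0% over all features. miR-16-5p had 881.9, 2303 and 1032 CPM in spermatids and 32.8 to 190.7 in haploid ESC (log2 -4.01, SE 0.37, adjusted p = 3.83e-10), and miR-15b-5p 629.7, 1347 and 636.3 against 194.2 to 402.4 (log2 -1.73, SE 0.34, adjusted p = 7.20e-05). The miR-30 family had 7 of 12 lower and none higher, or 11 lower with total-count scaling, beside the same 21.5% and 47.0%. It took 1.15% to 1.79% of haploid counts and 6.20%, 8.37% and 8.43% of spermatid counts. The most abundant member, miR-30d-5p, was not among the 7. The Hox cluster miRNAs divided by family: all 4 features of miR-10 were lower and all 3 of miR-196 higher. miR-10b-5p had 548.4, 4836 and 1027 CPM in spermatids against 108.1 to 407.8 (log2 -3.49, SE 0.46, adjusted p = 1.71e-07), and without RS 2 its log2 fold change was -2.14. miR-10a-5p had 2031, 2082 and 1420 CPM against 260.8 to 582.7 (log2 -2.13, SE 0.34, adjusted p = 2.94e-06). miR-196a-5p, chosen after its value was seen, had 0, 20.1 and 2.46 CPM in spermatids and 205.6 to 467.2 in haploid ESC.

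The miR-200 family, a set known for the epithelial state, had 2 of 7 features higher and 2 lower, beside 47.0% and 21.5% over all features. miR-200b-3p had 812.2 to 1407 CPM in haploid ESC against 424.9, 377.7 and 282.5 in spermatids (log2 1.62, SE 0.37, adjusted p = 3.88e-04), and -0.05 with total-count scaling, where 5 of the 7 were lower and none higher. With upper-quartile scaling miR-200b-3p was not called (0.14). miR-200c-3p did not pass (log2 -0.46, SE 0.35, adjusted p = 0.228), but was called lower without RS 2 (-0.79, adjusted p = 0.0421), with RLE scaling and DESeq2 (both -0.85), with the filter of at least 50 counts (-1.27), with upper-quartile scaling (-2.03) and with total-count scaling (-2.19).

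**Figure D4:**
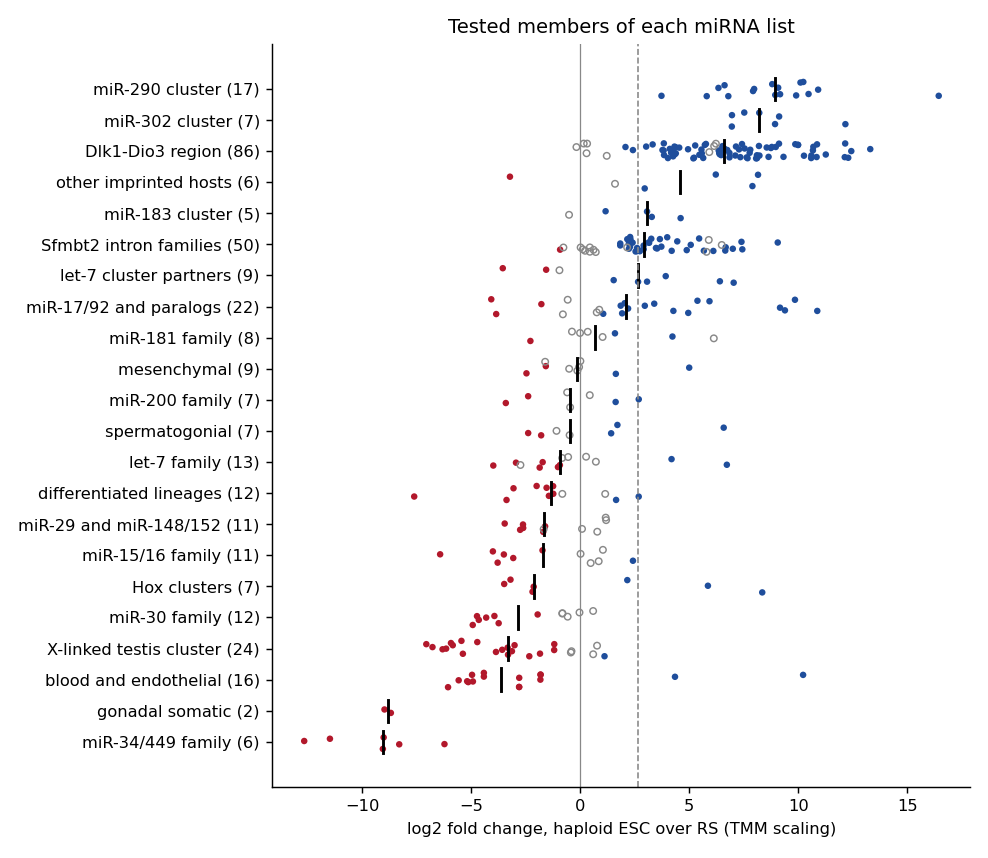
Log2 fold change (x axis, haploid ESC over RS, TMM scaling) of each tested member of 22 lists, with the number tested in brackets, filled points for members that passed the test (blue higher, red lower), open points for the others, black bars at list medians and a dashed line at the median of all features, 2.65. Values of members with no count in a group depend on the prior count of the fit, as for miR-291b-5p at the far right. The miR-290 cluster lies wholly to the right and the miR-34 and miR-449 family wholly to the left of 0.

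Markers of other cells of the testis differed between the spermatid libraries. The 16 tested blood and endothelial features summed to 6534, 986 and 3636 CPM in RS 1, 2 and 3 and to 784 to 1436 in haploid ESC. Of these 14 were lower in haploid ESC and 2, the arms of miR-150, higher (edgeR), beside 21.5% lower and 47.0% higher over all features. Some of the 16 had the same haploid values, such as miR-126a-5p and miR-126b-3p, or miR-142a-3p and miR-142b. The sums and counts of this list may thus hold the same reads more than once. miR-126a-3p, the main endothelial marker, had 5036, 411.1 and 2621 CPM in spermatids and 48.8 to 116.4 in haploid ESC (log2 -5.19, SE 0.47, adjusted p = 2.25e-10), and the red cell marker miR-451a 394.4, 223.9 and 191.6 against 15.8 to 153.5. The leukocyte marker miR-223-3p had 27.1, 0 and 2.46 CPM. miR-150-5p ran the other way, with 508.3 to 1141 CPM in haploid ESC against 38.9, 16.7 and 46.7 (log2 4.34, SE 0.48, adjusted p = 8.88e-09).

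The mesenchymal and peritubular list summed to 27402, 7299 and 15345 CPM in RS 1, 2 and 3 and to 9662 to 26909 in haploid ESC. It had 2 of 9 features higher and 2 lower, beside 47.0% and 21.5% over all features, and 1 higher and 7 lower with total-count scaling. miR-143-3p made up most of it, with 26491, 7022 and 14778 CPM against 8789 to 25043 (log2 -0.13, SE 0.48, adjusted p = 0.813). miR-214-3p was higher in haploid ESC (385.3 to 1163 CPM against 23.7, 6.68 and 22.1, log2 5.00, SE 0.54, adjusted p = 5.23e-09), though not after GC correction (1.09, adjusted p = 0.0625). miR-202, known from Sertoli and other gonadal somatic cells, summed to 44.0, 73.5 and 36.9 CPM in spermatids, and miR-202-5p had 3 counts in haploid ESC, a pooled ratio of 374.8 (95% interval 120.3 to 1885). miR-202-3p had none. The spermatogonial list summed to 52629, 25153 and 35850 CPM in spermatids and 6314 to 8926 in haploid ESC, nearly all of it miR-21a-5p. In that list miR-221-3p was higher in haploid ESC (193.6 to 283.8 CPM against 86.3, 60.2 and 71.3, log2 1.70, SE 0.37, adjusted p = 2.02e-04), but no member of the list was higher with total-count scaling. RS 1 had the highest sums of the blood, mesenchymal and spermatogonial lists and the lowest share of miR-34 and miR-449. Its share of the X-linked testis cluster, however, was the highest of the 3, at 24.5%. RS 2 had the lowest sums of the blood, mesenchymal and spermatogonial lists and the highest miR-290 share, but the highest miR-202 sum, on 22 counts. The part of these other cells in the differences between haploid ESC and spermatids was not tested.

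Some abundant miRNAs stood at like levels in both haploid cell types under TMM scaling in the main fit. Of 26 miRNAs with at least 1000 CPM in both groups 15 were not called, 5 were higher and 6 lower in haploid ESC (edgeR). A minimum in both groups leaves out features with large differences, so this count is a description of the set only. miR-30d-5p had 10786, 22269 and 18195 CPM in spermatids and 12520, 13557 and 28078 (lowest, median, highest) in haploid ESC (log2 -0.03, SE 0.47, adjusted p = 0.953). miR-22-3p had 1105, 2330 and 1128 CPM against 1009 to 2057 (log2 -0.11, SE 0.37, adjusted p = 0.799), and miR-26a-5p 14512, 8001 and 10404 against 6728 to 10251 (log2 -0.35, SE 0.41, adjusted p = 0.441). The groups overlapped for all 3. miR-30a-5p, in contrast, had no overlap, with 7800, 9445 and 9134 CPM in spermatids and 3133 to 7180 in haploid ESC, and did not pass (log2 -0.82, SE 0.39, adjusted p = 0.0644). miR-30a-5p was called lower after GC correction (-1.02) and with total-count (-2.52), upper-quartile (-2.27) and RLE scaling (-1.155). DESeq2 (-1.155), voom (-0.88), the filter of at least 50 counts (-1.63) and libraries weighed equally (-1.05) also gave the call. So did leaving out RS 1, RS 2, A129-2 replicate 2 or A129-6 replicate 3 (adjusted p = 0.0110, 0.0224, 0.0395 and 0.0313, edgeR). Relative to total counts miR-30d-5p, miR-22-3p, miR-26a-5p and miR-143-3p were all called lower in haploid ESC, at log2 -1.73, -1.68, -2.05 and -1.79. With upper-quartile scaling all of them were called lower too, at -1.393, -1.458, -1.911 and -1.765. Under TMM scaling with the filter of at least 50 counts, miR-22-3p (-0.857, adjusted p = 0.0204) and miR-26a-5p (-1.155, adjusted p = 0.0107) were called lower too (edgeR). DESeq2 also called miR-26a-5p lower (-0.73, adjusted p = 0.0269). The likeness thus depends on the scaling and the filter.

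Counts summed over miRNAs with the same seed gave a second measure for features with a RefSeq sequence, which leaves out 8.66% to 11.8% of haploid and 22.1% to 42.4% of spermatid counts, miR-34c-5p and miR-292a-3p among them. The seed sums were scaled on their own, so their CPM are on another scale than those given above. miR-7210-5p, the only member of its seed, had 8214 CPM in RS 1 on this scale and 6485 on the other. Of 502 seeds 324 (64.5%) passed the test, 218 (43.4%) higher and 106 (21.1%) lower in haploid ESC (edgeR). They were higher with no overlap for 42.2% of the seeds and lower with no overlap for 17.3%. The AAGUGCU seed of miR-291a-3p, miR-294-3p, miR-295-3p, miR-302b-3p and miR-302d-3p was higher, with a log2 fold change of 7.62 (SE 1.07, adjusted p = 2.07e-06). The seed AAAGUGC of miR-17-5p, miR-20a-5p, miR-93-5p and their paralogs, which is AAGUGCU moved by a base, did not pass (log2 0.21, SE 0.45, adjusted p = 0.677), with 3576 to 7323 CPM in haploid ESC and 1617, 6799 and 4091 in spermatids. The let-7 seed GAGGUAG, summed over 9 members, was lower (log2 -1.66, SE 0.39, adjusted p = 8.33e-04), with 7335 to 10543 CPM against 23494, 29699 and 26658 and no overlap. The AUCACUA seed of miR-34b-3p and miR-34c-3p was lower by far more (log2 -9.31, SE 0.51, adjusted p = 6.09e-12). By fold the leading seeds were those of single miRNAs named above, miR-7210-5p, miR-468-5p, miR-7230-5p, miR-673-5p and miR-431-3p, and GAUCUAG of miR-344-3p and miR-344c-3p, which had no spermatid count.

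The ratio of the 2 arms of a hairpin within a library does not depend on how libraries are scaled. Of 102 hairpins 57 (55.9%) differed in this ratio (limma), 24 (23.5%) with relatively more 5p in haploid ESC and 33 (32.4%) with less. The groups did not overlap for 19.6% and 27.5% of the hairpins. For many of these 1 arm was near 0 in the shallow spermatid libraries, where depth and the added 0.5 count set the ratio. The rule for named hairpins picked miR-541, miR-298 and miR-320, whose minor arm had at most 1 count in any spermatid library. It picked miR-470 as well, whose 3p arm had 3, 4 and 0 counts in RS 1, 2 and 3 and none in any haploid library. Each of these hairpins had at least 99% of its counts on the same arm in every library. The rule also picked miR-147, where the 5p arm held 31.7%, 32.5% and 18.9% of counts in RS 1, 2 and 3 and at most 2.0% in haploid ESC (difference of log2 ratios -6.43, SE 0.82, adjusted p = 1.35e-04, limma). Among the 49 hairpins with at least 10 counts of each arm over the spermatid libraries, a filter chosen after the data had been seen, 35 (71.4%) differed, 11 (22.4%) with more 5p and 24 (49.0%) with less in haploid ESC.

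In 7 hairpins, singled out after their values were seen, the mean log2 ratio of 5p to 3p had opposite signs in the 2 groups. For 4 of them, miR-28a, miR-18a, miR-30b and miR-195a, the 5p arm led in every spermatid library and the 3p arm in every haploid library, and the other 3 had haploid libraries on both sides of an even split. miR-28a, from the Lpp intron, had 99.4%, 95.2% and 95.4% of its counts on the 5p arm in RS 1, 2 and 3 and 8.31%, 18.5% and 22.6% (lowest, median, highest) in haploid ESC. The log2 ratio of 5p to 3p differed by -7.52 (SE 0.66, adjusted p = 1.63e-05, limma). The level followed the arm: miR-28a-5p was lower in haploid ESC (log2 -3.77, SE 0.38) and miR-28a-3p higher (3.37, SE 0.54), and the seeds of the 2 arms, printed above, differ. For miR-18a the 5p arm had 95.0%, 96.7% and 100.0% in spermatids, on 20 to 30 counts each, and 16.5% to 33.6% in haploid ESC. miR-30b had 87.8%, 92.1% and 88.8% against a median of 37.0% and a highest value of 44.8%, and miR-195a 54.0%, 60.6% and 59.8% against 4.71% to 29.1%.

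For miR-743a, of the X-linked testis cluster, the 5p arm had a larger share in haploid ESC: 20.5%, 15.0% and 24.5% of counts came from it in spermatids and 41.4% to 53.5% in haploid ESC, or 48.5% of the pooled haploid counts (difference of log2 ratios 2.06, SE 0.34, adjusted p = 6.26e-04, limma). miR-467d (18.5% to 34.1% against 36.2% to 67.7%) and let-7d (56.4% to 69.9% against 41.1% to 59.8%) lost their call without RS 2, at adjusted p = 0.0691 and 0.0703 (limma). With the counts of each line summed they lost it too, at 0.054 and 0.061, and let-7d also without RS 3, at 0.0735. The 3p arm of miR-467d had the same lowest, median and highest haploid CPM as that of miR-467a, so its reads may be shared between copies.

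**Figure D5:**
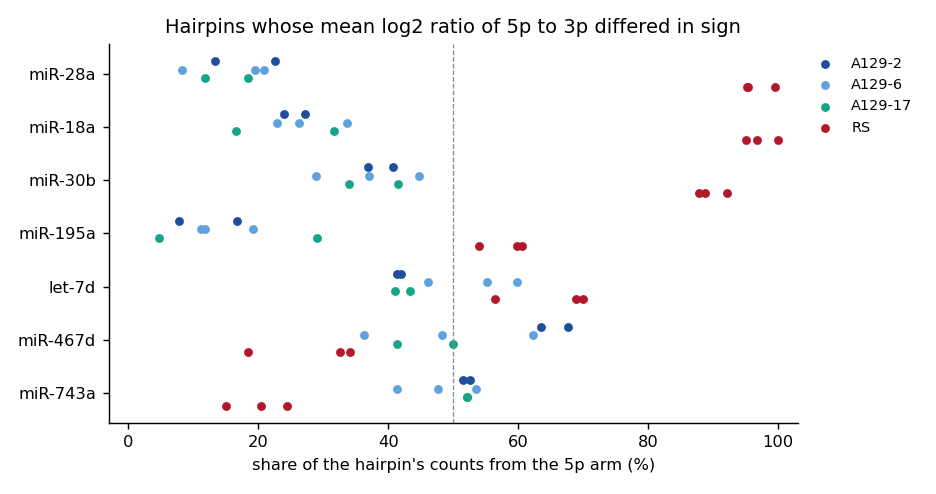
Share of a hairpin's counts that came from its 5p arm (x axis, percent) in each of the 10 libraries, for the 7 hairpins whose mean log2 ratio of 5p to 3p differed in sign between the groups, coloured by line or RS. For miR-28a, miR-18a and miR-30b every spermatid library lies above 85% and every haploid library below 50%, and for let-7d the groups overlap.

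In an F-test over the 3 haploid lines in the same fit no feature of 739 passed (edgeR), and 82 had an unadjusted p under 0.05. With 2 or 3 libraries a line this does not show that the lines are alike. The X-linked testis cluster took 0.670% and 0.643% of counts in the A129-2 libraries, 2.08% to 2.55% in A129-6, and 0.723% and 2.11% in A129-17. miR-871-3p, for example, had a mean of 7691 ± 4811 CPM (SD of the 3 line means) in haploid ESC and 14655 ± 3920 (SD, n = 3) in spermatids, and its adjusted p between the lines was 0.218.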

How the data were processed

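Small RNA libraries were made with the NEBNext small RNA kit (3′ then 5′ adapter ligation, PCR, gel selection) and sequenced on a NovaSeq, per the labels' protocols. The deposited table holds raw read counts per miRNA for 1549 features, 183 of them predicted. The submitters' processing notes name Bowtie 0.12.9 and DESeq2. The genome build, the miRBase release, strand use and the treatment of reads that match several miRNAs are not given in the sources used here, and some copies share identical counts. No molecular identifiers were named, so intervals and floors cover counting error only.

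Counts were tested with edgeR 4.0.16 (R 4.3.3; filterByExpr with a minimum count of 10, TMM, quasi-likelihood test, Benjamini-Hochberg adjustment over all tested features), with each of the 3 haploid lines weighed equally against RS. Counts were also summed by seed, and log2 ratios of 5p to 3p counts (0.5 added, at least 20 counts of the hairpin in each library) were tested with limma 3.58.1. The fits were also run on simulated counts with known changes drawn at random in both directions. No GC trend and no difference between lines was put in, so the choice of scaling was not tested there.

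The miRNAs and lists were chosen with earlier results of these data known. By rule, the text names the 8 with the largest change per direction (at least 100 CPM in a group, no overlap) and the 5 most abundant per group. It also names the 2 most abundant of each list and up to 8 with at least 1000 CPM in both groups and the smallest change. Of seeds and hairpins it names 6 each. A further 24 miRNAs, and miR-34a-5p, were added after their values were seen. Sequences were matched for 1158 features and not for 208 miRBase names. Alternatives were other scalings and filters, DESeq2 1.42.0, voom, other weights, a replicate block and leaving out each library; the GC correction and the filter on both arms were added after the data had been seen. Every pair of replicates differed by more than sampling noise.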

Additional observations from a re-analysis of the deposited data

Results flagged for a closer look

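Among 59 named miRNAs with counts in haploid ESC, 6 had 1 of the 7 haploid libraries further from the others than Dixon's 95% limit of 0.568 allows; chance marks about 1 in 20 such groups. miR-34b-5p was counted in A129-2 replicate 1 only, at 1.35 CPM, and miR-202-5p in A129-6 replicate 3 only, at 0.809 CPM. A129-2 replicate 2 was highest for miR-181d-5p, at 1689 CPM where the next library had 956.4, and for miR-10b-5p, at 407.8 CPM where the next had 211.2. miR-298-5p reached 9354 CPM in A129-17 replicate 1, with 6430 in the second highest library, and miR-150-5p 1141 CPM in A129-17 replicate 2, where the next had 750.4.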

How the results depend on the processing

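Scaling and base composition moved the counts most. Total-count scaling gave 210 miRNAs higher and 241 lower in haploid ESC, and 129 seeds higher and 166 lower, upper-quartile scaling gave 161 seeds lower, and the GC correction left 178 miRNAs higher. Log2 fold changes that turned were -1.07 for miR-99b-5p, -1.23 for miR-92a-3p, -0.84 for miR-470-5p and -1.89 for miR-878-3p after GC correction. With total-count scaling they were -1.21 for miR-467a-5p and miR-467b-5p, -0.047 for miR-200b-3p, -0.52 for miR-182-5p, -0.56 for miR-470-5p and -1.02 for miR-878-3p, and with upper-quartile scaling -1.09 for miR-467a-5p and miR-467b-5p, -0.30 for miR-182-5p and -0.30 for miR-470-5p. Of hairpins 35 differed, 11 of them higher, with both arms seen in RS (fewer hairpins tested), 41 were higher with a pseudocount of 5, and 21 lower with a stricter filter (75 tested). The cause of the other changes was not tested. Leaving out 1 library gave 438 (without RS 1) to 500 miRNAs called. Replicate numbers did not pair samples (r -0.10 to 0.18 over 13 pairs); a fit with the replicate block called 499 miRNAs, 324 seeds and 59 hairpins. Over all alternatives, those above included, single miRNAs, seeds and hairpins kept direction and side of the threshold in 2393 cases, lost the call in 53, gained it in 51 and turned in 14; of the list counts 970 stayed within 1.5 times and 130 did not. The GC correction is void for the Sfmbt2, miR-30, mesenchymal, blood and differentiated lists, where under 80% of members have a sequence. The shallow RS libraries limit what can be said of features near 2.31 CPM there.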

Other observations

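The ratio of miR-293-5p to miR-292a-5p, which share the seed CUCAAAC and lie in the same cluster, was 0.00252 to 0.00922 in the 7 haploid ESC libraries and 0.652 and 0.669 in the 2 libraries of the diploid line R1. It was 0.733 in RS 2, on 220 and 300 counts, 0.241 in RS 3, on 7 and 29 counts, and 1.33 in RS 1, on 4 and 3 counts. The ratio was looked at after the values of RS 2 had been seen.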
